A study of Homo sapiens with 14 samples.

Results

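NFAT5, a set of osmolyte and amino acid carriers, the kinase SGK1 and the water and glycerol channel AQP3 were followed through liver cancer cells compressed by osmotic medium or by a weight. The 9 genes were NFAT5, AKR1B1, SLC5A3, SLC6A6, SLC6A12, SLC38A2, HSPA4L, SGK1 and AQP3, taken by name. All 9 were present among the 56479 genes counted, and all 9 were among the 19232 genes with enough reads to be tested.

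Total RNA was sequenced from HepG2, a hepatoblastoma line, and Hep3B, a hepatocellular carcinoma line, both labelled wild type. HepG2 on culture dishes had been kept in isotonic medium or in medium with 4% polyethylene glycol 300 (PEG), a polymer that raises the osmolarity, for 5 days. HepG2 on transwell membranes were uncompressed or lay under a weight. Hep3B were all on transwell membranes and were uncompressed, under a weight, or in 3% PEG. Each of the 7 groups had 2 libraries. The load and the culture time on transwells were not given in the sources used here, and each line stands for its cancer type as 1 established line. The labels speak of biological replicates, but separate cultures are not described further, so that p-values measure the spread between the labelled libraries, which may be technical.

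Cells that lose water to a concentrated medium restore their volume first with inorganic ions and later with compatible organic osmolytes, which they import or make. NFAT5 (also TonEBP) is the transcription factor best known for this programme: it binds tonicity-responsive enhancers (TonE) near the genes of aldose reductase and of the inositol, taurine and betaine carriers, and it is controlled largely through entry into the nucleus and activity of the protein, which RNA levels do not show. SGK1 is a kinase whose short-lived mRNA varies with cell volume in liver cells and is also induced by serum and glucocorticoids, and AQP3 is an aquaglyceroporin that passes water and glycerol.

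Each library held between 21.2 M and 35.4 M counts. RB1, by which the lines can be told apart, stood at 101 to 147 CPM (counts relative to the scaled library size) in HepG2 and at 2.63 to 4.94 CPM in Hep3B, and 7 liver markers summed to 30869 to 141982 CPM and 28421 to 48743 CPM. Of the immune markers, LYZ was at 485 to 4928 CPM in HepG2, whereas PTPRC had no count in 10 of the 14 libraries and at most 3 in the others. The 4 immune markers summed to 496 to 4930 CPM in HepG2 and 5.44 to 15.6 CPM in Hep3B, 3 endothelial ones to 7.00 to 14.9 and 0.494 to 1.65 CPM, and 4 stromal ones to 2.19 to 27.1 and 11.7 to 27.1 CPM. The replicates of each dish group varied more (biological coefficient of variation 0.323 and 0.290) than those of the transwell groups (0.0434 to 0.0704). Across genes, the difference between the dish replicates followed transcript GC content (Spearman's rho -0.660 in isotonic medium and -0.670 in PEG, a description over genes, which are not independent). The 4 members of lowest GC, SLC5A3, SLC38A2, HSPA4L and NFAT5 (38.3% to 40.6%), were 1.32 to 2.13 times as high in isotonic replicate 1 as in replicate 2, whereas SGK1 differed by a factor of 1.01.

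The upstream sequences of 3 members are shown because these genes rose together in HepG2 in 4% PEG over all libraries. They are the stretches just before an annotated transcript start, from RefSeq on GRCh38.p14, 5′ to 3′ along the gene, outside annotated exons. Of the 3 HSPA4L stretches, the only stretch that holds the core of the NFAT5 motif is shown. The AQP3 and SLC5A3 stretches hold no core. Capitals mark the letters TGGAAA or, on the other strand, TTTCCA.
HSPA4L, chr4:127783273-127783522, plus strand: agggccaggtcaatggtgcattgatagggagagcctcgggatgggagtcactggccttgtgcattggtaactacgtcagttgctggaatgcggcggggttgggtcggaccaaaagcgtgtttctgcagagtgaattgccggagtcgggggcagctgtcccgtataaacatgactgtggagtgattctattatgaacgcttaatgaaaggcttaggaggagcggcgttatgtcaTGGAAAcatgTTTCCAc
AQP3, chr9:33447634-33447843, minus strand: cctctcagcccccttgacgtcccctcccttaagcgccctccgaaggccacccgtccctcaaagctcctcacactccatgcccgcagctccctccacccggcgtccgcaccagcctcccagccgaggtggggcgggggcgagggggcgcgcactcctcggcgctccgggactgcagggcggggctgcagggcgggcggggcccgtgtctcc
SLC5A3, chr21:34073328-34073522, plus strand: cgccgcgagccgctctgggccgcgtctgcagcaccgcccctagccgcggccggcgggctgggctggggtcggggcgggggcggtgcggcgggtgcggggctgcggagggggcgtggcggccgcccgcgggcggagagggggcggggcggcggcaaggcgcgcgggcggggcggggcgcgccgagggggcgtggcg
The HSPA4L stretch lies inside the annotated gene, before the most downstream of the gene's 3 starts in the table, and its matches begin 17 and 7 bases before that start, side by side on opposite strands without overlapping. Windows of 300 bases around a start were found for 6 of the 9 members, 11 windows in all (no window for NFAT5, SLC6A6 and SLC6A12). TGGAAA on either strand occurred in 20.7% of all 35116 windows in the table, and the longer TonE consensus, which contains this core, in 4.92%. Among the members, the core was in 2 of the 3 HSPA4L windows and in the SLC38A2 window, and TonE in the HSPA4L window shown and in the SLC38A2 window. The 3 SGK1 windows, the 2 AKR1B1 windows and those of AQP3 and SLC5A3 held neither. A match is a run of letters and not a measured site, and sequence outside these windows was not searched.

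In 4% PEG, 5 of the 9 genes rose in HepG2 and 2 fell, against 23.9% of all tested genes called higher and 23.0% called lower (46.9% in either direction; edgeR quasi-likelihood test, adjusted p under 0.05). The carriers for inositol, taurine and betaine, the chaperone HSPA4L and AQP3 were the 5 that rose, and SGK1 and the amino acid carrier SLC38A2 the 2 that fell. The median log2 fold change of the 9 was 0.93 and that of all tested genes 0.01. Under the weight in HepG2 none of the 9 rose (5.40% of all genes did) and 1, SGK1, fell (4.18%), with 9.58% called in either direction; SLC5A3 and SLC6A12 were higher at an unadjusted p under 0.05, and DESeq2 called the first. Under the weight in Hep3B none was called, where 1.05% of genes were (0.879% higher, 0.172% lower) and SGK1 alone had an unadjusted p under 0.05. In Hep3B in 3% PEG, HSPA4L and SLC38A2 rose (2 of 9, beside 11.0% of all genes) and SGK1 and SLC6A6 fell (2 of 9, beside 11.5%), 22.5% in either direction. The weight and 3% PEG comparisons in Hep3B share their uncompressed controls. In bulk RNA, fewer cells with a transcript and less of it per cell cannot be told apart.

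**Figure D1:**
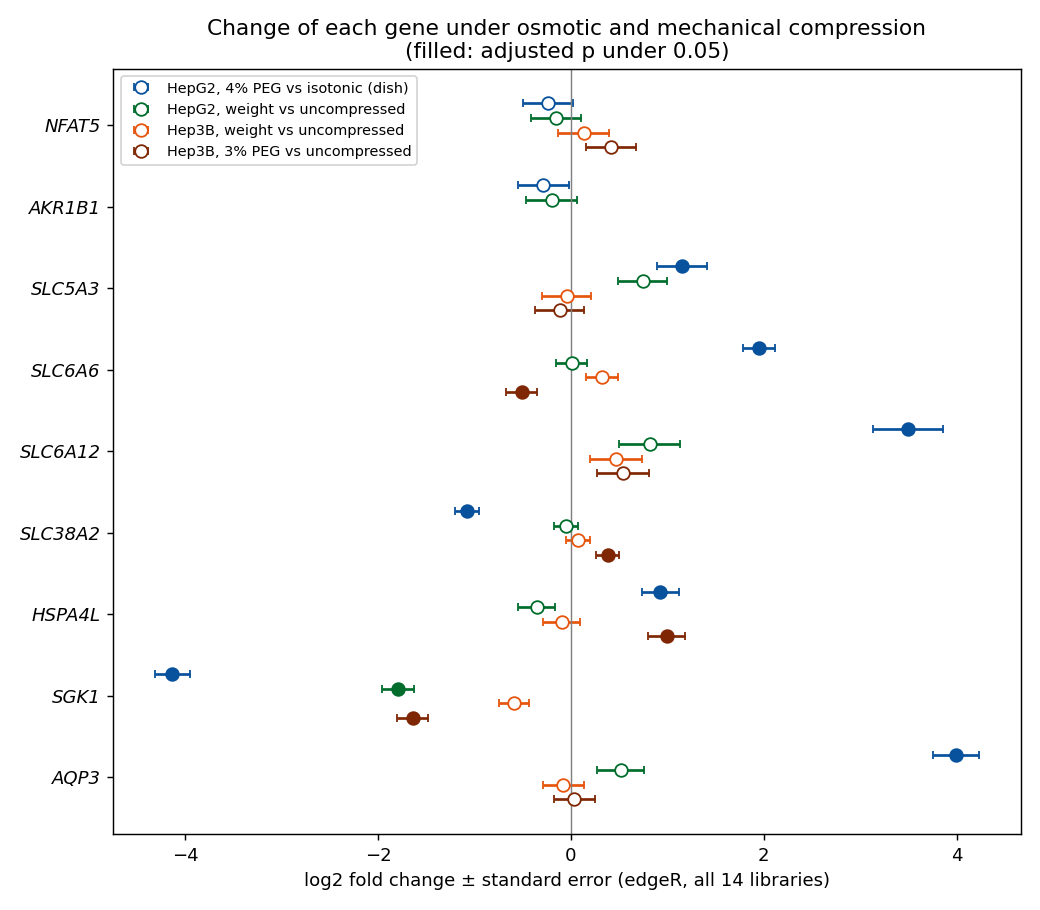
Log2 fold change ± SE (x axis, edgeR) of each member (y axis) in the 4 comparisons of a compressed group with its control, 2 libraries a group. Filled points have an adjusted p under 0.05. AKR1B1 is not drawn in Hep3B, where its groups held 0 to 3 counts. SGK1 lies left of 0 in all 4 comparisons (-4.13, -1.79, -0.59 and -1.64), filled in all except the weight in Hep3B, and AQP3 and SLC6A12 lie far right in 4% PEG alone.

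NFAT5 (ENSG00000102908, chromosome 16, 69565094 to 69704666, plus strand) differed between the lines and, over all 14 libraries, passed no test of compression. It shares 9.7% of its exon bases with AC012321.1 on the same strand. NFAT5 levels were as follows. It stood at 396 and 210.3 CPM in isotonic dishes and at 263 and 249.9 CPM in 4% PEG, within the isotonic range. On transwells HepG2 had 160.5 and 205 CPM without and 129 and 199 CPM with the weight. In Hep3B it was at 83.4 and 96.9 CPM uncompressed, 99.2 and 98.1 CPM under the weight and 115 and 126 CPM in 3% PEG. Treated and control libraries thus overlapped in both HepG2 comparisons, and in Hep3B both treated groups lay above the uncompressed one. The log2 fold changes were -0.24 ± 0.26 in 4% PEG (adjusted p = 0.481), -0.15 ± 0.26 (0.804) and 0.13 ± 0.26 under the weight in HepG2 and Hep3B, and 0.42 ± 0.26 in 3% PEG (0.295; edgeR). With the libraries of the comparison alone, 3% PEG passed against no compression (0.44, 4.53e-06) and against the weight (0.30, 0.000131), which it did not with the transwell libraries together (0.45, 0.181, against no compression). The value in 4% PEG turned with the control library left out: it was -0.63 (adjusted p = 0.0265) without isotonic replicate 2 and 0.28 (0.326) without replicate 1. Uncompressed Hep3B held 2.03-fold less NFAT5 than uncompressed HepG2 (log2 -1.02 ± 0.26, adjusted p = 0.00639), a call that ended without HepG2 replicate 2 (0.0557) or Hep3B replicate 1 (0.0543).

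AKR1B1, aldose reductase, which makes the osmolyte sorbitol from glucose, was a HepG2 transcript in these libraries (ENSG00000085662, chromosome 7, 134442350 to 134459284, minus strand). HepG2 had 42.4 and 55.5 CPM in isotonic dishes, 30.9 and 49.5 CPM in 4% PEG, 70.8 and 70.9 CPM on uncompressed transwells and 61.9 and 61.5 CPM under the weight. The 6 Hep3B libraries held 4 reads in all, none in the uncompressed pair, 1 in a weight library and 3 in a 3% PEG library. With 3301 counts in the uncompressed HepG2 pair and none in that of Hep3B, the level was at least 1349-fold lower in Hep3B, taking 3 counts over the group as the floor, a limit for counting error only. Neither treatment of HepG2 passed the test (4% PEG log2 -0.28 ± 0.27, adjusted p = 0.41; weight -0.20 ± 0.26, 0.731). With a GC correction the value in 4% PEG was -0.39 and passed (adjusted p = 0.0258). Both weight libraries lay below both of their controls. With the groups of that comparison alone the value under the weight was -0.16 and passed (adjusted p = 0.0313). It did not pass with the transwell libraries together (-0.17, 0.0865).

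SLC5A3, the sodium-coupled myo-inositol carrier, rose in HepG2 in 4% PEG (ENSG00000198743, chromosome 21, 34073570 to 34106262, plus strand, sharing 2.4% of its exon bases with MRPS6). It had 73.9 and 34.6 CPM in isotonic dishes and 118 and 124 CPM in 4% PEG, so that both PEG libraries were above both controls, which differed from each other 2.13-fold. The rise was 2.22-fold (log2 1.15 ± 0.26, adjusted p = 0.00311). It did not pass with the spread of the dish libraries alone (1.15, 0.0734), and with the GC correction it was 1.28. On transwells HepG2 had 52.8 and 61.7 CPM without and 91.0 and 101 CPM with the weight, without overlap (log2 0.74 ± 0.25, adjusted p = 0.0942; 0.78 and 1.1e-08 with the spread of the transwell libraries alone). Hep3B stayed between 56.3 and 66.5 CPM in all 6 libraries, with log2 fold changes of at most 0.11 in size. The inositol carrier was thus higher in the treated libraries of HepG2 in both settings, and its groups overlapped in Hep3B.

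SLC6A6, the taurine carrier, was at one level in the untreated groups and moved in opposite directions in the PEG groups (ENSG00000131389, chromosome 3, 14402576 to 14489349, plus strand). Its levels were 52.3 and 48.6 CPM in isotonic dishes, 153 and 236 CPM in 4% PEG, 55.8 and 58.2 CPM on HepG2 transwells and 57.6 and 56.9 CPM under the weight. In Hep3B they were 56.1 and 56.7 CPM uncompressed, 71.6 and 69.2 CPM under the weight and 38.6 and 40.5 CPM in 3% PEG. It rose 3.86-fold in 4% PEG (log2 1.95 ± 0.17, adjusted p = 2.77e-06) and fell 1.43-fold in 3% PEG (-0.51 ± 0.16, adjusted p = 0.0438). The fall did not pass without any 1 of the 4 libraries (adjusted p 0.151 to 0.196) or under scaling by total counts (0.0853). Under the weight the log2 fold change was 0.01 ± 0.16 in HepG2 and 0.32 ± 0.16 in Hep3B (adjusted p = 0.691; 0.35 and 6.43e-05 with the transwell libraries alone).

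SLC6A12, the betaine and GABA carrier, was scarce in both lines, with the lowest level per kilobase of exon after SGK1 in 4% PEG, after AKR1B1 in Hep3B and of all 9 members in the other HepG2 groups (ENSG00000111181, chromosome 12, 190077 to 214570, minus strand). It had 11 and 10 reads, 0.389 and 0.469 CPM, in isotonic dishes and 3.40 and 6.29 CPM in 4% PEG, an 11.3-fold rise (log2 3.49 ± 0.36, adjusted p = 1.19e-05). HepG2 transwells had 1.56 and 1.70 CPM without and 2.95 and 2.80 CPM with the weight (log2 0.82 ± 0.32, adjusted p = 0.139; 0.85 and 0.00522 with the transwell libraries alone). Hep3B started from 6.11 and 7.96 CPM, with 11.1 and 8.37 CPM under the weight and 9.55 and 11.0 CPM in 3% PEG. In all 4 comparisons both treated libraries were above both controls, and only 4% PEG passed the test over all libraries (weight in Hep3B 0.47 ± 0.27, adjusted p = 0.775; 3% PEG 0.54 ± 0.27, 0.178). With the transwell libraries alone the Hep3B values were 0.50 (adjusted p = 0.0195) and 0.58 (0.00133).

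SLC38A2, the system A carrier of small neutral amino acids, was by far the most abundant member and fell in HepG2 in 4% PEG (ENSG00000134294, chromosome 12, 46358189 to 46372867, minus strand). It had 5331 and 4039 CPM in isotonic dishes against 2253 and 2182 CPM in 4% PEG, a 2.11-fold fall (log2 -1.08 ± 0.12, adjusted p = 2.79e-05). The weight left it at 3398 and 3243 CPM beside 3503 and 3388 CPM (log2 -0.05 ± 0.12, adjusted p = 0.87). Hep3B had 408 and 419.9 CPM uncompressed, 428 and 446 CPM under the weight and 543 and 534 CPM in 3% PEG. The rise in 3% PEG was 1.30-fold (log2 0.38 ± 0.12, adjusted p = 0.0462), and it did not pass without any 1 of the 4 libraries (0.164 to 0.229) or with RLE size factors (0.0513). The carrier was thus lower in 4% PEG in HepG2 on dishes and, in the less stable call, higher in 3% PEG in Hep3B on transwells. Line, dose and surface cannot be told apart in this contrast. The starting levels differed 8.32-fold between the lines on transwells (log2 -3.06 ± 0.13, adjusted p = 5.55e-09).

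HSPA4L, a chaperone of the HSP110 family that works with HSP70, rose in PEG in both lines, over all libraries the only member to do so (ENSG00000164070, chromosome 4, 127781821 to 127840733, plus strand). It had 53.7 and 33.4 CPM in isotonic dishes and 91.6 and 74.3 CPM in 4% PEG, and 34.2 and 35.8 CPM in uncompressed Hep3B and 69.7 and 69.5 CPM in 3% PEG. The rises were 1.90-fold (log2 0.93 ± 0.19, adjusted p = 0.00196) and 1.99-fold (0.99 ± 0.19, 0.00345). The difference between these effects was 0.07 ± 0.27 on the log2 scale (adjusted p = 0.913), with dose, surface and line all differing. With the dish libraries alone the rise in HepG2 was the same size and did not pass (0.93, 0.0832), and with the libraries of the same surface alone it was SLC6A12 that passed in both lines. Under the weight HSPA4L was at 38.2 and 39.9 CPM beside 49.0 and 50.7 CPM in HepG2 (log2 -0.35 ± 0.19, adjusted p = 0.308; -0.32 and 0.000473 with the transwell libraries alone) and at 35.3 and 30.1 CPM in Hep3B. Its antisense neighbour AC093591.2 shares 4.6% of its exon bases, and whether reads were counted by strand was not stated.

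SGK1 was lower in every treated library than in its control libraries, in both lines (ENSG00000118515, chromosome 6, 134169246 to 134318112, minus strand). It had 98.8 and 97.7 CPM in isotonic dishes and 6.76 and 4.42 CPM in 4% PEG. On transwells HepG2 had 109.7 and 105 CPM without and 33.3 and 28.5 CPM with the weight. Hep3B had 126 and 132 CPM uncompressed, 89.5 and 82.3 CPM under the weight and 39.4 and 43.4 CPM in 3% PEG. The 3 untreated groups were thus the 3 highest of the 7, no neighbours in the order overlapped, and the order ran from uncompressed Hep3B (129 ± 3.96 CPM, SD, n = 2) through uncompressed HepG2, isotonic HepG2, Hep3B under the weight, Hep3B in 3% PEG and HepG2 under the weight to HepG2 in 4% PEG (5.59 ± 1.66 CPM). SGK1 fell 17.5-fold in 4% PEG (log2 -4.13 ± 0.18, adjusted p = 1.97e-08), 3.47-fold under the weight in HepG2 (-1.79 ± 0.16, 7.9e-05) and 3.12-fold in 3% PEG (-1.64 ± 0.16, 4.06e-05). Under the weight in Hep3B the value was -0.59 ± 0.16 (adjusted p = 0.151), which passed with DESeq2 (0.0173), without the filter on low counts (0.0346), with the GC correction (0.00672) and with the transwell libraries alone (1.95e-07). The other 3 falls passed in every alternative tried, with adjusted p up to 0.00237 for the weight in HepG2.

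**Figure D2:**
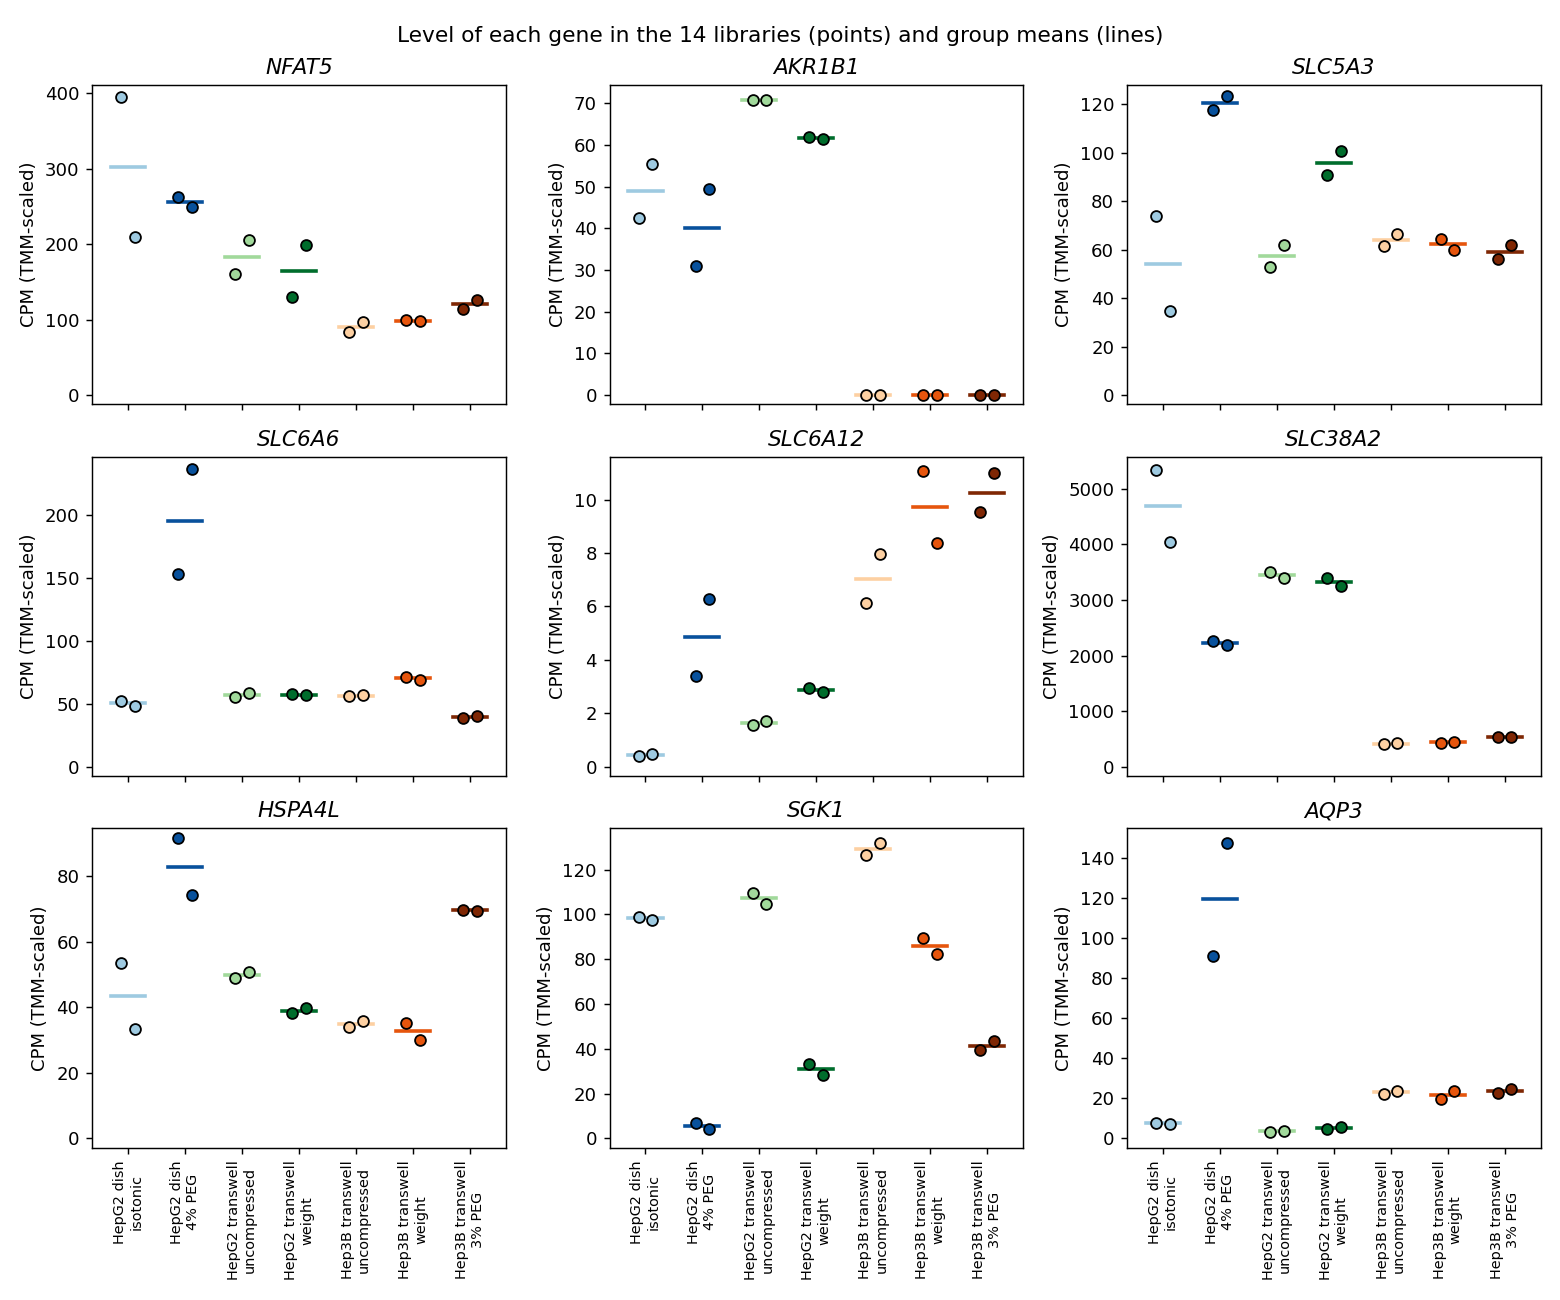
Level of each member (y axis, CPM, linear, from 0) in the 7 groups (x axis). Points are libraries and lines are means of 2. SGK1 is highest in the 3 untreated groups (97.7 to 132 CPM), AKR1B1 is at or near 0 in the 3 Hep3B groups, and the isotonic dish points of SLC5A3 and NFAT5 lie far apart.

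AQP3 rose in 4% PEG and, over all libraries, passed the test under no other treatment (ENSG00000165272, chromosome 9, 33441154 to 33447633, minus strand). Isotonic dishes had 7.92 and 7.04 CPM and 4% PEG had 91.2 and 147 CPM, a 15.9-fold rise (log2 3.99 ± 0.24, adjusted p = 1.74e-07). HepG2 on transwells had 3.35 and 3.97 CPM without and 4.56 and 5.93 CPM with the weight (log2 0.52 ± 0.25, adjusted p = 0.237; 0.54 and 0.0134 with the transwell libraries alone). Hep3B lay between 19.9 and 24.9 CPM in all 6 libraries, with a log2 fold change of 0.03 ± 0.21 in 3% PEG (adjusted p = 0.951), an interval of 2 standard errors from -0.39 to 0.46. The line with the lower starting level thus had the higher level in PEG, 119 ± 39.7 CPM in HepG2 in 4% PEG beside 23.7 ± 1.74 CPM in Hep3B in 3% PEG (SD, n = 2 each). Line, dose and surface all differ between these PEG groups and cannot be told apart.

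Per kilobase of exon, the members ranked differently in the lines. In uncompressed HepG2 on transwells SLC38A2 had 522 ± 12.4 CPM per kb, AKR1B1 19.4, NFAT5 11.2, SGK1 10.7, SLC6A6 6.91, SLC5A3 4.95, HSPA4L 4.29, AQP3 1.24 and SLC6A12 0.308. In uncompressed Hep3B, SLC38A2 was again first at 62.7 ± 1.26 CPM per kb, followed by SGK1 at 12.9 and AQP3 at 7.83. In 4% PEG, AQP3 reached 40.4 ± 13.5 CPM per kb, second to SLC38A2, and SGK1 was last at 0.560 ± 0.166. The annotated exon length counts all transcripts of a gene, so these ranks depend on it.

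Between the uncompressed lines on transwells, AQP3 and SLC6A12 were higher in Hep3B and SLC38A2, NFAT5, HSPA4L and AKR1B1 lower, 2 and 4 of 9 where 27.6% of all genes were called higher and 27.1% lower (54.7% in all). AQP3 was 6.30-fold higher (log2 2.66 ± 0.24, adjusted p = 2.22e-06) and SLC6A12 4.31-fold higher (2.11 ± 0.30, 0.000107). HSPA4L was -0.51 ± 0.19 (adjusted p = 0.0403), a call that did not pass with RLE size factors (0.0564), total counts (-0.18, 0.401), DESeq2 (0.0501) or without any 1 library. SGK1 (0.27 ± 0.16, 0.171), SLC5A3 (0.16, 0.615) and SLC6A6 (-0.02, 0.946) did not pass. SGK1 did with these groups alone (0.26, 1.1e-05), the transwell libraries alone (0.25, 0.000639), the GC correction (0.31, 0.0322) and total counts (0.60, 0.00628). SLC5A3 passed with these groups alone (0.15, 0.0445). With total counts, which moved the median of all genes to 0.35, SLC5A3 was 0.49 and SLC6A6 0.31, and neither passed.

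Untreated HepG2 on transwells and on dishes differed in 3 of 9 members, 1 higher and 2 lower, where 4.79% of genes were called higher and 5.33% lower (10.1% in all). There SLC6A12 was higher on transwells (log2 1.93 ± 0.39, adjusted p = 0.0125), AQP3 lower (-1.03 ± 0.24, 0.0226) and SLC38A2 lower (-0.44 ± 0.12, 0.0429). Surface cannot be told apart here from culture time, which was not given on transwells, or from any other difference between the dish and transwell libraries. None of the 3 passed with these 4 libraries alone, a fit in which no gene passed (0 of 15532 tested), so it says nothing particular about these members. The same surface difference runs through each comparison of PEG in HepG2 with any other treatment below.

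The direct comparison of 3% PEG and weight in Hep3B was made on the same surface. HSPA4L was higher in PEG (log2 1.09 ± 0.19, adjusted p = 0.00203), and SGK1 (-1.05 ± 0.16, 0.000777) and SLC6A6 (-0.83 ± 0.16, 0.00389) were lower, 1 and 2 of 9 where 11.4% of genes were called higher and 11.8% lower (23.1% in all). SLC38A2 did not pass (0.30 ± 0.12, 0.103), but did with the transwell libraries alone (0.30, 2.87e-06), these groups alone (0.32, 3.48e-05) and total counts (0.39, 0.0316). In HepG2, the effect of 4% PEG on dishes differed from that of the weight on transwells for 6 members, 4 higher and 2 lower, where 14.4% and 15.5% of genes were called (29.9% in all), and the agent and the surface cannot be told apart. AQP3, SLC6A12, SLC6A6 and HSPA4L were more positive in PEG and SGK1 and SLC38A2 more negative, whereas the difference for SLC5A3 was 0.41 ± 0.36 (adjusted p = 0.442), which became 1.05 (0.000706) without isotonic replicate 1 and -0.04 (0.922) without replicate 2.

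The effects also differed between the lines. The effect of the weight on SGK1 was smaller in Hep3B by 1.20 ± 0.23 on the log2 scale (adjusted p = 0.0211), the 1 member called where 0.822% of genes were called higher and 1.07% lower (1.89% in all). This call did not pass when any 1 of the 8 libraries was left out (0.0694 to 0.128), while with the transwell libraries alone it was 1.20 (1e-10). There the differences of SLC5A3 (-0.79, 3.86e-06), AQP3 (-0.59, 0.0337) and SLC6A6 (0.31, 0.00668) passed as well. The effects of PEG, 4% in HepG2 and 3% in Hep3B, differed for AQP3, SLC6A12, SLC6A6 and SLC5A3 (lower in Hep3B) and SGK1 and SLC38A2 (higher), 4 lower and 2 higher of 9 where 12.6% and 12.9% of genes were called (25.5% in all), and line, dose and surface cannot be told apart.

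**Figure D3:**
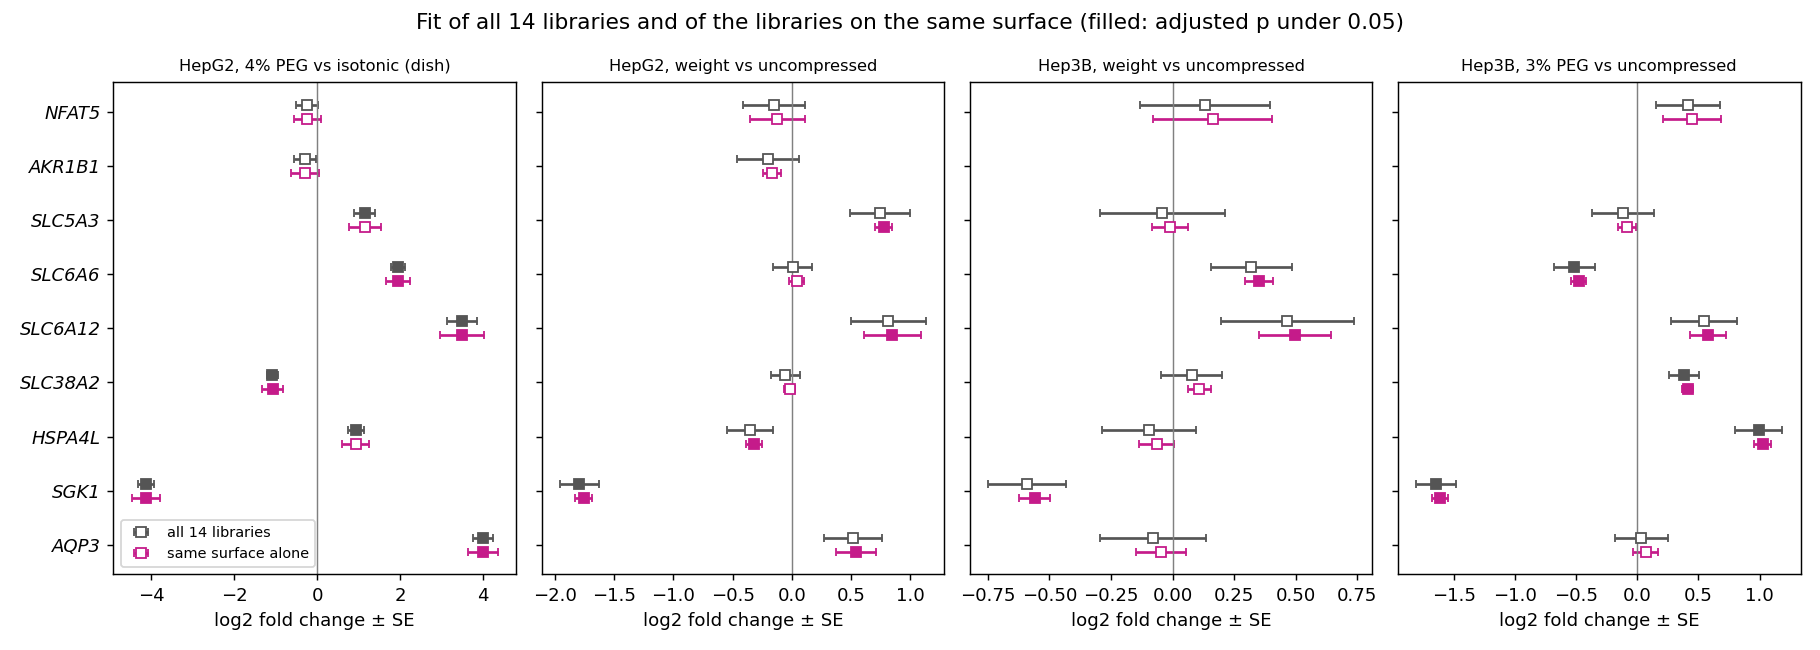
Log2 fold change ± SE of each member (x axis) from the test over all 14 libraries and from the libraries of the same surface alone, in the 4 comparisons. Filled points have an adjusted p under 0.05, and AKR1B1 in Hep3B is not drawn. The fold changes nearly coincide, while SLC5A3 and HSPA4L lose their call in 4% PEG and SLC5A3, SLC6A12, AQP3 and HSPA4L gain one under the weight in HepG2 with the transwell libraries alone.

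How many members passed thus depended on which libraries gave the spread. With the libraries of the same surface alone, 3 members rose and 2 fell in 4% PEG, where 11.8% of all genes were called higher and 10.2% lower (22.0% in all). Under the weight 3 rose and 2 fell in HepG2 (19.6% and 19.0% of genes, 38.6% in all) and 2 rose and 1 fell in Hep3B (8.38% and 6.86%, 15.2% in all). In 3% PEG 3 rose and 2 fell (26.8% and 25.9%, 52.6% in all), and against the weight in Hep3B 2 were higher and 2 lower (25.5% and 26.6%, 52.1% in all). For the weight between the lines 2 were higher and 2 lower (12.2% and 10.3%, 22.4% in all). AQP3, SGK1, SLC6A6, SLC6A12 and SLC38A2 kept their calls in 4% PEG, with adjusted p of 0.00147, 0.00134, 0.00649, 0.00666 and 0.0279.

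The counts of other gene groups stand beside the shares of all tested genes called higher and lower: 23.9% and 23.0% in 4% PEG, 5.40% and 4.18% under the weight in HepG2, 0.879% and 0.172% in Hep3B, and 11.0% and 11.5% in 3% PEG. Of 12 other carriers of osmolytes and amino acids, 7 rose and 4 fell in 4% PEG, none passed under the weight in HepG2, SLC6A8 alone rose under the weight in Hep3B and 7 rose and none fell in 3% PEG, with median log2 fold changes of 1.10, -0.01, -0.02 and 1.40 (all tested genes 0.01, 0, -0.01 and -0.01). Where this list or one below had a count of 0 in edgeR, at most 3 of its genes reached an unadjusted p under 0.05 in that direction, and DESeq2 called at most 1. The cystine and glutamate exchanger SLC7A11 went from 45.3 ± 22.4 to 364 ± 1.94 CPM in 4% PEG (log2 3.00 ± 0.26, adjusted p = 2.65e-06) and from 32.3 ± 3.09 to 285 ± 0.170 CPM in 3% PEG (3.14 ± 0.26, 1.16e-05). SLC38A1, the system A relative of SLC38A2, rose in both (1.08 ± 0.13 and 0.96 ± 0.13), where SLC38A2 fell in HepG2. SLC5A11, an inositol carrier related to SLC5A3, rose from 24 to 294 reads in 4% PEG and from 10 to 175 reads in 3% PEG, in which SLC5A3 did not pass. SLC6A13, the neighbour of SLC6A12 in its family, had 5 and 87 reads, and 2 and 42 reads. SLC7A5, the large neutral amino acid carrier, fell in 4% PEG (-1.08 ± 0.33) and rose in 3% PEG (1.84 ± 0.33). SLC38A4 fell in 4% PEG (-3.14 ± 0.24, 1.08e-06), and the creatine carrier SLC6A8, which has near-identical copies, rose under the weight in Hep3B (1.93 ± 0.29, 0.00765) and fell in 4% PEG (-1.84, 0.000266).

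**Figure D4:**
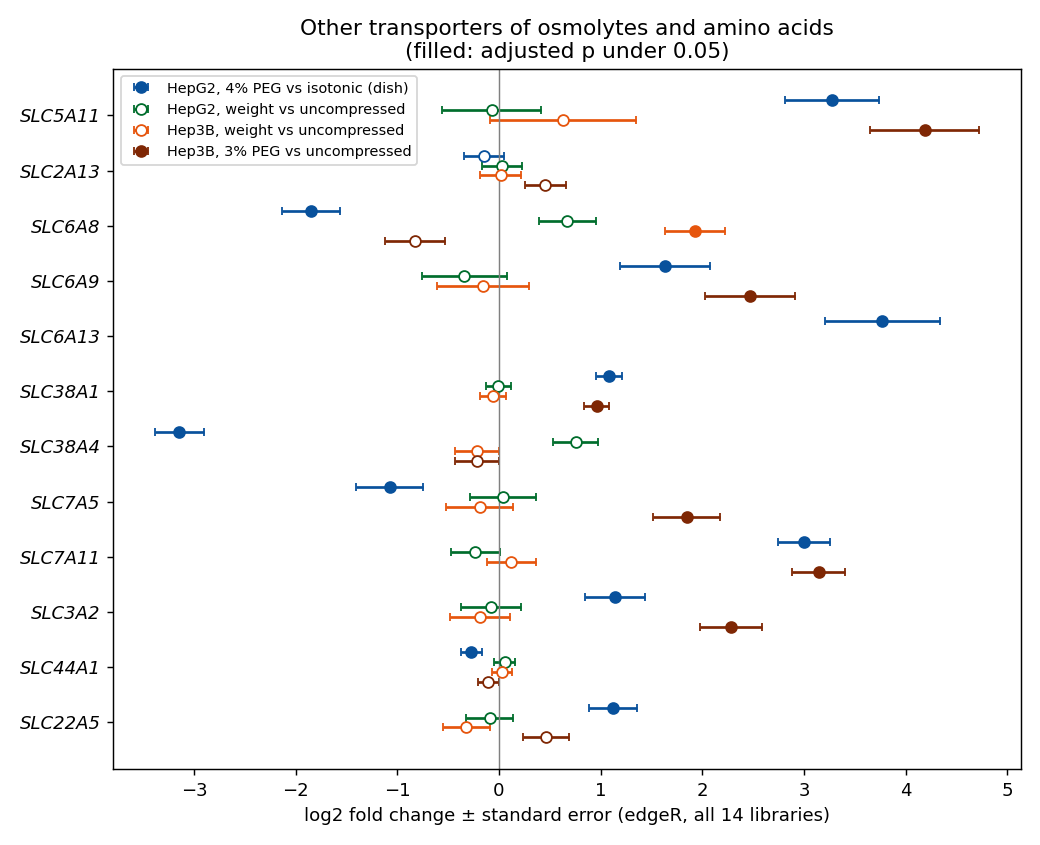
Log2 fold change ± SE (x axis, edgeR) of the 12 listed relatives of the carriers in the 4 comparisons of a compressed group with its control. Filled points have an adjusted p under 0.05, and SLC6A13 is drawn in 4% PEG alone, since it had 3 counts or fewer in a group of the others. Filled points on the right number 7 of 12 in 4% PEG and 6 of the 11 drawn in 3% PEG, and the weight has 1, SLC6A8 in Hep3B.

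Of 15 enzymes of osmolyte synthesis and breakdown, 2 rose and 8 fell in 4% PEG (all genes 23.9% and 23.0%), 0 and 1 under the weight in HepG2 (5.40% and 4.18%), none in Hep3B, and 2 and 4 in 3% PEG (11.0% and 11.5%). Their medians were -0.62, -0.14, -0.14 and -0.11. SORD, which oxidises the sorbitol that AKR1B1 makes, fell in both PEG groups (-1.54 ± 0.16, adjusted p = 1.26e-05, and -0.98 ± 0.16). CDO1, on the way from cysteine to taurine, fell in 4% PEG (-1.73 ± 0.23), and BHMT, which consumes betaine, rose in 4% PEG (1.26 ± 0.25) and in 3% PEG, there from 11 reads in the controls (3.01 ± 0.41).

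Other reported NFAT5 targets moved both ways. Of 14 tested of 20 listed, 5 rose and 5 fell in 4% PEG (all genes 23.9% and 23.0%), 2 and 1 did under the weight in HepG2 (5.40% and 4.18%), 1 and 0 in Hep3B (0.879% and 0.172%), and 1 and 5 in 3% PEG (11.0% and 11.5%), with medians of 0.79, 0.31, 0.00 and -0.45. AKR1B10, a relative of AKR1B1 with a near-identical copy, rose in 4% PEG (3.32 ± 0.24, 6.8e-07) and in 3% PEG (4.96 ± 0.39, from 8 reads) and fell under the weight in HepG2 (-1.15 ± 0.23). The tight junction gene CLDN1 fell in 4% PEG (-1.88 ± 0.13) and in 3% PEG (-1.15 ± 0.13). AQP1 had no read in uncompressed HepG2 and 19 under the weight, at least 6.48-fold higher with 3 counts over the group as the floor, and 18 and 82 reads in Hep3B (2.33 ± 0.46, adjusted p = 0.0479).

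Of 21 regulators of NFAT5, 6 rose and 3 fell in 4% PEG (all genes 23.9% and 23.0%), 0 and 3 under the weight in HepG2 (5.40% and 4.18%), none in Hep3B and 2 and 5 in 3% PEG (11.0% and 11.5%), and the medians were 0.15, -0.18, -0.12 and -0.02. CSNK1A1, a kinase that restrains NFAT5, rose in both PEG groups (1.19 ± 0.10 and 0.85 ± 0.09), and AKAP13, a guanine nucleotide exchange factor upstream of NFAT5, rose in 4% PEG (1.37 ± 0.18). MAP2K6, which activates the kinase p38, fell under the weight in HepG2 (-1.73 ± 0.21), in 4% PEG (-1.41 ± 0.23) and in 3% PEG (-0.72 ± 0.20), and so did PARP1 (-0.66 ± 0.09, -0.45 ± 0.09 and -0.55 ± 0.09). Of the 4 calcium-regulated NFAT genes, NFATC2 fell in 4% PEG (-1.68 ± 0.15) and under the weight in HepG2 (-0.79 ± 0.15), and NFATC3 fell under the weight in HepG2 (-0.41 ± 0.12) and rose in 3% PEG (0.46 ± 0.12).

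Among 13 relatives and partners of HSPA4L, 5 rose and 2 fell in 4% PEG (all genes 23.9% and 23.0%), 1 and 2 under the weight in HepG2 (5.40% and 4.18%), none in Hep3B, and 2 and 0 in 3% PEG (11.0% and 11.5%), and the medians were 0.21, -0.31, -0.12 and 0.31. HSPH1, another HSP110, rose in 4% PEG (2.26 ± 0.20), as did the cochaperone DNAJB1 (1.33 ± 0.12). In 3% PEG the 2 that rose were HSPA13 (1.30 ± 0.11) and HSPA9 (0.58 ± 0.12), and HSPA9 fell in 4% PEG (-0.42 ± 0.12). Under the weight in HepG2, DNAJB1 rose (0.51 ± 0.12) and the endoplasmic reticulum chaperone HYOU1 fell (-0.71 ± 0.15).

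Genes around SGK1 moved both ways. Of 18 tested of 20 listed in its kinase axis, 5 rose and 6 fell in 4% PEG (all genes 23.9% and 23.0%), 2 and 2 under the weight in HepG2 (5.40% and 4.18%), 1 and 0 in Hep3B (0.879% and 0.172%), and 2 and 2 in 3% PEG (11.0% and 11.5%). The medians were 0.12, -0.14, -0.02 and 0.01. SGK2, a related kinase, rose in 4% PEG (1.87 ± 0.15, adjusted p = 1.57e-06) from 10.1 ± 1.67 to 36.7 ± 0.883 CPM, where SGK1 fell. NEDD4L, a ubiquitin ligase that SGK1 phosphorylates, fell there (-1.14 ± 0.10). NDRG1, a substrate of SGK1, rose under the weight in HepG2 (1.27 ± 0.17, 0.000899) and Hep3B (1.29 ± 0.17, 0.00344) and fell in 4% PEG (-0.91 ± 0.17, 0.000945) and 3% PEG (-0.64 ± 0.17, 0.0182). SCNN1A, a subunit of the epithelial sodium channel whose surface level SGK1 raises, rose under the weight in HepG2 (2.11 ± 0.33, 0.00231).

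SGK1 is also induced by glucocorticoids, and of 14 tested of 15 corticosteroid receptors and targets, 3 rose and 5 fell in 4% PEG (all genes 23.9% and 23.0%), 4 and 0 under the weight in HepG2 (5.40% and 4.18%), none in Hep3B, and 5 and 1 in 3% PEG (11.0% and 11.5%). The medians were -0.33, 0.26, -0.09 and 0.06. MT2A, of a family of near-identical metallothioneins, rose in 4% PEG (2.69 ± 0.36) and in 3% PEG (5.44 ± 0.55, from 17 reads), and HSD11B2, which inactivates cortisol, fell in 4% PEG (-4.39 ± 0.46, to 15 reads) and in 3% PEG (-1.79 ± 0.32). DUSP1 and ERRFI1, which dampen kinase signalling, rose under the weight in HepG2 (0.79 ± 0.17 and 0.49 ± 0.10) and in 3% PEG (0.74 ± 0.18 and 0.83 ± 0.10) and fell in 4% PEG (-0.58 ± 0.17 and -0.51 ± 0.10).

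Among 13 tested of 19 aquaporins and genes of glycerol handling, 5 rose and 3 fell in 4% PEG (all genes 23.9% and 23.0%), 2 and 1 under the weight in HepG2 (5.40% and 4.18%), 1 and 0 in Hep3B (0.879% and 0.172%), and 2 and 1 in 3% PEG (11.0% and 11.5%), with medians of 0.25, 0.15, 0.05 and 0.02. GPD1, which makes glycerol 3-phosphate, rose in 4% PEG (3.33 ± 0.28) from 3.93 ± 1.75 to 39.2 ± 8.44 CPM, and GK, the glycerol kinase, fell (-2.04 ± 0.14), in the group where AQP3 rose. In 3% PEG, GPD1 rose (1.33 ± 0.36) and GK fell (-0.55 ± 0.14), and AQP3 did not pass. Under the weight in HepG2, GPD1 fell (-1.55 ± 0.27) and AQP11 rose (0.95 ± 0.19).

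The genes whose levels were most like each member's over the 14 libraries are given as a description, since the libraries share groups, lines and scaling. By Pearson's r of log2 CPM, NFAT5 was nearest to VPS13A (0.972) and BLTP1 (0.971), AKR1B1 to KAZN (0.997) and EDA2R (0.996) and SLC38A2 to SEC31A (0.995) and TIMP3 (0.994). SLC5A3 was nearest to ANKRD1 (0.893) and KATNAL1 (0.877), SLC6A6 to HMGA1 (0.967) and VASP (0.959), and SLC6A12 to DIP2A (0.967) and SNAPC4 (0.967). HSPA4L was nearest to RTCA (0.972) and TBK1 (0.967), SGK1 to SNRPD3 (0.977) and SNRPA (0.971), and AQP3 to KIAA0513 (0.964) and ATP6V1E1 (0.957). No member was among the 2 nearest genes of another.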

How the data were processed

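Per the labels, total RNA came from an RNeasy mini kit and was read in pairs on HiSeq or NovaSeq instruments. STAR, DESeq2 and GRCh38 (hg38) are named, without versions, in the submitters' processing notes. Counter, strand setting and annotation were not given in the sources used here. What the authors deposited is 1 table of raw counts per gene and library. Its Hep3B control columns were read as uncompressed Hep3B. Positions, exon lengths and GC came from GENCODE 29.

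Counts were fitted in edgeR 4.0.16 (R 4.3.3) by the quasi-likelihood test over all 14 libraries, with 1 mean per group, 7 residual degrees of freedom, TMM scaling and filterByExpr at a minimum count of 10, and p-values were adjusted by Benjamini-Hochberg over the 19232 genes tested (threshold 0.05). SE is the standard error of the log2 fold change, and intervals span 2 SE. Likeness used log2 CPM with a prior count of 2 among genes of at least 5 CPM. Entries without a gene name held at most 0.308% of a library.

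The members and lists were chosen with earlier results of these data known. Up to 2 genes of each of 9 lists with the smallest p past the threshold were named in each of the 4 treatment comparisons; other carriers named were chosen after their values were seen. List medians leave out genes with 3 counts or fewer in both groups and set genes without a count in 1 group at their bound. Alternatives were RLE scaling, total counts, no filter, at least 5 CPM in 2 libraries, a replicate block, smaller sets of libraries, DESeq2 1.42.0 and leaving out each library; a GC correction was added after seeing the data. On simulated data of the same depth, 47% to 61% of 2-fold and 90% to 96% of 4-fold changes were recovered in the 4 treatment comparisons. Each simulated gene had the same spread in all groups, taken from all 14 libraries, and changes were put only into genes above a minimum count. These shares therefore do not carry the larger spread of the dish pairs or the smaller spread of the transwell pairs.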

Additional observations from a re-analysis of the deposited data

Results flagged for a closer look

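The results here are differences between effects that passed the edgeR test of the difference itself, on the log2 scale. The log2 fold change of SGK1 under the weight was less negative in Hep3B than in HepG2, by 1.20. This call did not hold when any 1 library of these groups was left out, with sizes of 1.09 to 1.32. The fall in Hep3B did not itself pass over all libraries (-0.59, adjusted p = 0.151). The effect of 3% PEG in Hep3B minus that of 4% PEG in HepG2 was -2.95 for SLC6A12, 2.49 for SGK1, -2.46 for SLC6A6, 1.46 for SLC38A2, -3.96 for AQP3 and -1.27 for SLC5A3. Line, dose and surface cannot be told apart in these 6. The call for SLC5A3 did not pass without any 1 of the 4 Hep3B libraries (adjusted p 0.0508 to 0.0831). In HepG2, the effect of 4% PEG on dishes minus that of the weight on transwells was 2.68 for SLC6A12, -2.34 for SGK1, 1.94 for SLC6A6, -1.03 for SLC38A2, 1.28 for HSPA4L and 3.48 for AQP3. Agent and surface cannot be told apart in these 6.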

How the results depend on the processing

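No change that passed the test in the fit over all libraries turned its sign in an alternative. None that passed in an alternative had the opposite sign in that fit. Alternatives could differ in sign from each other: without isotonic replicate 2 and without replicate 1, NFAT5 in 4% PEG was -0.63 and 0.28. In the same order, on transwells against dishes SLC5A3 was -0.36 and 0.73 and HSPA4L -0.10 and 0.58. SLC5A3 for PEG against weight in HepG2 was -0.04 and 1.05. Under settings other than leaving out a library, 671 values stayed on their side of the threshold, 45 newly passed and 14 no longer did. With 1 library left out, 395 stayed, 6 newly passed and 35 no longer did. Of the values that stayed, 14 and 26 turned their sign, none of them past the threshold on either side, from sizes of at most 0.28 and 0.41 on the log2 scale. With a library left out, the other library of that group was taken to vary as the remaining groups did. With RLE size factors 1 member rose in 3% PEG in place of 2, where 4257 of 19232 genes were called in either direction in place of 4323. With total counts alone 1 fell there in place of 2, 2 rose against the weight in Hep3B in place of 1, and 1 was lower on transwells in place of 2. In these comparisons that scaling moved the genes called from 4323 to 4569, from 4444 to 4766 and from 1947 to 2831. That scaling moved the median of all genes to 0.37 in 4% PEG, 0.35 between the lines, 0.14 between surfaces, -0.28 between the PEG effects and 0.34 between PEG and weight in HepG2. It gave NFAT5 0.12 and AKR1B1 0.07 in 4% PEG, where neither passed in either scaling. Without the filter, and with DESeq2, SLC5A3 passed under the weight in HepG2 (1 rise in place of 0) and SGK1 in Hep3B (1 fall in place of 0). Of all genes, 2294 and 456 of 38337 were called there without the filter. DESeq2 called 2393 and 488 of 19232, in place of 1842 and 202. With the GC correction 2 rose under the weight in HepG2, 1 fell under the weight in Hep3B and 2 were higher on transwells. The genes called in these comparisons also went up, from 1842 to 4215, from 202 to 792 and from 1947 to 5017.

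With the groups of a comparison alone, 3 members rose in 4% PEG, where 3764 of 17092 tested genes were called in either direction. Under the weight 3 rose and 3 fell in HepG2 (6972 of 15653 genes called). In Hep3B 2 rose and 1 fell under the weight (2474 of 16303). In 3% PEG 4 rose (9864 of 16445), and 3 were higher in 3% PEG than under the weight (9328 of 16391). Between the lines 4 were higher in Hep3B (13271 of 16749). On transwells 0 were higher and 0 lower, and no gene at all was called (0 of 15532). Between the lines 2 effects of the weight were higher and 2 lower in Hep3B (3733 of 17823). With the libraries of the same surface alone, 3 rose in 4% PEG, 3 rose and 2 fell under the weight in HepG2, and 2 rose and 1 fell in Hep3B. There 2 were higher in 3% PEG than under the weight, and 2 effects of the weight were higher and 2 lower in Hep3B. The shares of all genes called in these fits are given in the Results.

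With 1 library left out, fewer members were called in 3% PEG, between the lines and for the weight between the lines. The numbers did not change under the weight in either line or for 3% PEG against the weight in Hep3B. They changed little in the comparisons with 4% PEG and moved both ways between surfaces. The share of all genes called in these fits is not given here, so such changes cannot be told apart from a general change in calls.

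The labels give replicate numbers that do not state a pairing. A replicate block changed no call of a member and moved the genes called from 9011 to 9419 in 4% PEG, from 1842 to 2149 and from 202 to 234 under the weight in HepG2 and Hep3B and from 4323 to 4724 in 3% PEG. The replicate differences correlated at 0.63 across genes between the dish groups, and between -0.08 and 0.14 for all other pairs of groups. Depth limits SLC6A12 in isotonic dishes (21 reads) and AKR1B1 in Hep3B (4 reads), for which no fold between Hep3B groups is given.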
